A study of Mus musculus with 2 samples.

Results

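Orphan and adhesion G-protein coupled receptor genes were described in neutrophils sorted from mouse bone marrow. The genes were those whose symbol on the array's annotation begins with Gpr and a digit, or with Adgr, a letter and a digit, read only on probe sets assigned to 1 gene. This gave 83 genes on 134 probe sets, of 18194 genes measured on the same arrays: 22 adhesion receptor genes (Adgr) and 61 Gpr genes. The cells came from the bone marrow of C57BL/6 mice, an inbred strain, with no treatment and no genotype or age stated in the labels. They were live, stained strongly for Gr-1 (an antigen of granulocytes that other myeloid cells also carry) and lacked CD48, which many other blood cells carry. Independent experiments gave 2 samples of this single group, replicate 1 and replicate 2, with 1 Affymetrix expression array each. The labels do not say whether animals were pooled.

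G-protein coupled receptors cross the membrane with a bundle of helices and pass an outside signal to G proteins, and arrestins and receptor kinases then switch them off. The name Gpr was given to receptors found by sequence before their ligand was known. Some have since been paired with protons, fatty acids or oxysterols, others remain orphans, and some Gpr proteins sit in organelle membranes and are not classical receptors. Adhesion receptors carry a long outer part with protein-binding modules that, in many of them, is cut from the helix bundle and stays attached to it. On leukocytes, adhesion receptors such as the products of Adgre1 and Adgre5 serve as surface antigens and contact other cells.

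The values are MAS5 signals, a linear brightness per probe set, and the trimmed means of the deposited arrays were equal. Background was taken from 87 probe sets of sensory receptor genes (for smell, pheromones, trace amines and taste), as the 95th percentile of their signals on each array. It lay at 108 for replicate 1 and at 131 for replicate 2. For a gene to count as above background, 1 or more of its probe sets had to exceed these limits on both arrays. Of 12 neutrophil marker genes 11 were measured, and all 11 were above background, S100a8, Ltf, Mmp9 and Csf3r among them. These markers differed between the arrays. Cxcr2 (7212 on replicate 1 and 3224 on replicate 2) and Csf3r (7951 and 4670) were the 2 higher on replicate 1. The others were higher on replicate 2, from Itgam (6822 and 6868) to Ltf (18878 and 33399) and Lcn2 (29701 and 42806). Of 77 measured markers of 12 other cell classes of the marrow, 18 were above background, where the share over all measured genes was 40.4%. In sorted cells, RNA from a few cells of another type and a low level in every cell cannot be told apart. With 1 group of 2 arrays there is no comparison between conditions and no p-value. The number of arrays limits the precision, and each SD below is over 2 arrays.

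The promoters of 4 of the genes are shown here because these genes were above background on both arrays and stand for 2 kinds of member: Adgrg3, Gpr65 and Gpr84 encode receptors of blood cells, and Gpr107 encodes a Golgi protein. Each sequence runs 5′ to 3′ on the gene's strand from 250 bases before the gene's start to 50 after it, from RefSeq, build GRCm38.p6. Capitals mark the letters GAGGAA, the core that the granulocyte transcription factor PU.1 binds, or their reverse complement.
Adgrg3 (chr8:95017442-95017741, plus strand): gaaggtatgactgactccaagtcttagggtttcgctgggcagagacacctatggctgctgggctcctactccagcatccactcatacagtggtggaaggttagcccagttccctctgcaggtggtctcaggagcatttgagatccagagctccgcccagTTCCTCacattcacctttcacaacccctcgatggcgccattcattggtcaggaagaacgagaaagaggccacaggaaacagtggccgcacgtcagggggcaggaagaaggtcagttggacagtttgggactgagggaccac
Gpr65 (chr12:98268385-98268684, plus strand): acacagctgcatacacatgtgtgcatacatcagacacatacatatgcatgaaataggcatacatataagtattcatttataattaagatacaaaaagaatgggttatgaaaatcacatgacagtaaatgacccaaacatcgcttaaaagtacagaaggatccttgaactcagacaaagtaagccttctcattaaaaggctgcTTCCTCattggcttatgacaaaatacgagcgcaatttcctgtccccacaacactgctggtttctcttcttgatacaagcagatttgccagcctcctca
Gpr84 (chr15:103310389-103310688, minus strand): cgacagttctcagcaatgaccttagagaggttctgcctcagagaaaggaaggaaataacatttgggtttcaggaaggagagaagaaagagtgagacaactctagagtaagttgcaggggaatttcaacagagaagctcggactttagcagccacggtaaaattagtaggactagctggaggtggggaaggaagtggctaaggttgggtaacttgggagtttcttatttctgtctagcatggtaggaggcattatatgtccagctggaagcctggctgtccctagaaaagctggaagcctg
Gpr107 (chr2:31152066-31152365, plus strand): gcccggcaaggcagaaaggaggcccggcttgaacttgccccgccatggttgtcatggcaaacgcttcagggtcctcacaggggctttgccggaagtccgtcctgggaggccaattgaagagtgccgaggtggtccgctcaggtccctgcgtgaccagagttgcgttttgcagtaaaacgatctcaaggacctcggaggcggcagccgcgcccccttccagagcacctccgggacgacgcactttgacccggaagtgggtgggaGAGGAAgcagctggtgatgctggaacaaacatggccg

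The Gpr65 and Gpr84 promoters each held 3 CpG dinucleotides and the Adgrg3 promoter 7, while the Gpr107 promoter held 20. The median over all 32851 promoters in the RefSeq table was 7, with a middle range of 3 to 20. Among the 16 genes above background, 12 had a promoter in that table. The other organelle protein promoters held 29 for Gpr180, 14 and 22 for the 2 starts of Gpr108, and 20 to 35 for the 3 starts of Gpr137. The Gpr18 promoter held 5 CpG, the Adgrl4 promoter 8, the Gpr45 promoter 14, the Gpr160 promoter 26 and the 3 starts of Gpr146 9, 32 and 4. The letters GAGGAA, searched on both strands, occurred in 9 of 17 promoters of these 12 genes (52.9%), in at least 1 promoter of 8 of the 12, against 28.3% of all promoters. At least 1 promoter held them in 15 of the 51 remaining receptor genes with a promoter (29.4%), against 31.3% of all genes in the table. The C/EBP letters TTGCNNAA, also searched on both strands, were in a promoter of 1 of the 12 genes, Gpr108, and in 12.2% of all genes. Of 8 motifs counted, CCAAT was also in a promoter of 8 of the 12 genes (66.7%), against 41.1% of all genes, and each of the other 5 motifs was in at most 3 of the 12. A gene with several starts has more sequence to match, and a match does not show that a factor binds.

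Few of the receptor genes were above background. On both arrays 16 of 83 genes (19.3%) were, against 7354 of 18194 measured genes (40.4%). By probe set the count was 22 of 134 (16.4%), against 35.5% of all probe sets with 1 gene. The adhesion genes gave 4 of 22 (18.2%) and the Gpr genes 12 of 61 (19.7%). A further 6 genes were above background on replicate 1 only and 6 on replicate 2 only, so that each array alone called 22 of 83 genes (26.5%), against 46.3% of all genes on replicate 1 and 44.2% on replicate 2. The remaining 55 genes (66.3%) were above background on neither array. Their 83 probe sets had a median signal of 15.9 on replicate 1 and 26.0 on replicate 2. The medians of the sensory receptor probe sets were 25.6 and 27.3. That these genes lie below the upper signals of the sensory probe sets follows from the call itself.

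**Figure D1:**
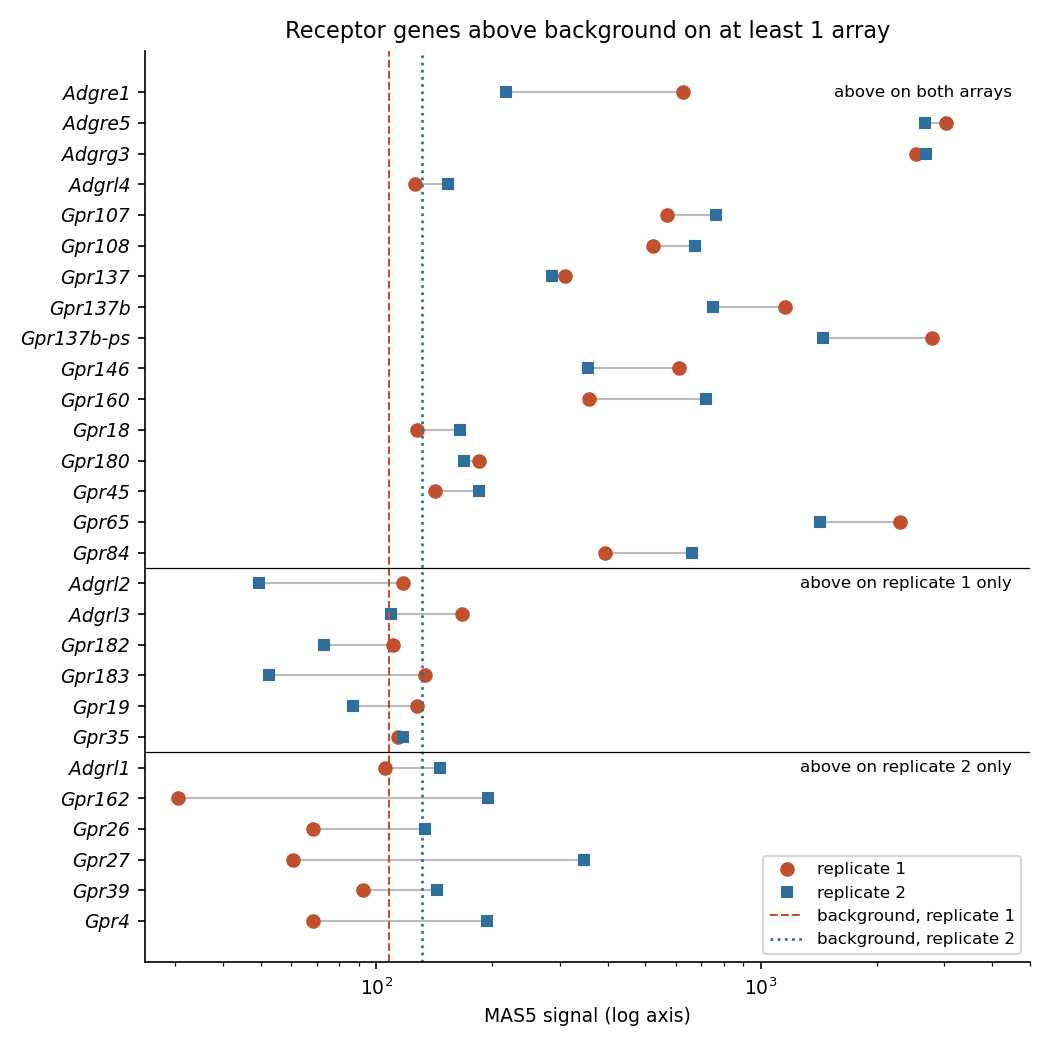
MAS5 signal on a log axis of the 28 receptor genes above background on at least 1 array, with replicate 1 as circles and replicate 2 as squares, for the gene's brightest probe set or, for genes above on 1 array, the probe set that passed. Dashed and dotted lines mark the background of each array (108 and 131). Adgre5 and Adgrg3 have nearly equal signals on the arrays, while the pair of points of Adgre1 is set far apart.

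Among the adhesion receptors, 4 genes of 3 subfamilies were above background. Adgre5 encodes CD97, a receptor of most leukocytes that binds the complement regulator CD55. It had signals of 3020 on replicate 1 and 2665 on replicate 2, a log2 level of 11.47 ± 0.13 (SD, n = 2). Adgrg3 encodes GPR97, a receptor known from granulocytes, and had signals of 2525 and 2691, a log2 level of 11.35 ± 0.065 (SD, n = 2). Both genes lay far above the background of each array and differed between the arrays by less than 0.2 on the log2 scale.

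Adgre1 encodes F4/80, the antigen by which mouse macrophages are recognised, and it is also carried by eosinophils and some monocytes. It was above background on its only probe set, with signals of 627 on replicate 1 and 217 on replicate 2, a log2 level of 8.53 ± 1.08 (SD, n = 2). Adgre4, the other E-subfamily gene measured besides Adgre5, was above background on neither array, with signals of 34.4 and 59.8 on the brighter of its 2 probe sets. Without Adgre1, 2 of 9 measured macrophage markers were above background (C1qb and Vcam1), against 40.4% of all genes. The signals of the 9 summed to 864 on replicate 1 and 790 on replicate 2. C1qb had 256 and 163, Vcam1 260.0 and 255, and Cd163, above background on replicate 1 only, 121 and 82.5. C1qa (104 and 7.45) was not above background on either array. Neither were C1qc (4.81 and 8.75), Timd4 (3.26 and 60.3), Mertk (13.3 and 76.7), Mrc1 (92.7 and 114) and Spic (8.89 and 20.7), each higher on replicate 2. No marker of the list was at 0, but a signal below background was not counted as a sign of the transcript. Of the monocyte markers, 3 of 7 (42.9%) were above background (Csf1r, Ccr2 and F13a1), against 40.4% of all genes. The signals of the 7 summed to 5848 on replicate 1 and 2723 on replicate 2. Csf1r alone had 5020 and 1928, and the other 6 summed to 828 and 795, with Ccr2 higher on replicate 2 (157 and 220). Of the eosinophil markers, 1 of 5 (20%) was above background, against 40.4% of all genes. It was Siglecf with 339 and 311, and the sums of the list were 427 and 447. The part of these cells, or of the neutrophils themselves, in the Adgre1 signal was not tested.

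Adgrl4, an endothelial adhesion receptor also called ELTD1, lay close above background with 126 and 153 (7.12 ± 0.20, SD, n = 2). Its other probe set did not pass, with 37.1 and 99.96. Of 7 stroma and endothelium markers 2 (28.6%) were above background (Kdr and Col1a2), against 40.4% of all genes. The endothelial genes Cdh5 (102 and 12.7) and Pecam1 (97.8 and 123) were not above background. The sums of that list were 932 on replicate 1 and 755 on replicate 2, and their part in the Adgrl4 signal was not tested. The latrophilins, the other L-subfamily receptors, bind teneurins and FLRT proteins between cells and were each above background on 1 array. Adgrl1 had 105 and 146, Adgrl2 117 and 49.4, and Adgrl3 167 and 109 on the probe set that passed. Adgrl3 had 6 probe sets, and the other 5 were below background on both arrays. So were the other probe set of Adgrl1 (64.0 and 59.0) and those of Adgrl2 (7.23 and 30.6, 63.4 and 66.4).

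The other adhesion genes were not above background on either array. These were the 3 A genes (Adgra1, Adgra2, Adgra3), the 3 B genes (Adgrb1, Adgrb2, Adgrb3, brain receptors also called BAI), Adgrd1, the 3 F genes (Adgrf1, Adgrf4, Adgrf5), Adgrg1, Adgrg2, Adgrg6 and Adgrv1, besides Adgre4. Over these 15 genes the signals ran to at most 79.8 on replicate 1 and 116 on replicate 2. Adgrg1 (GPR56, a receptor of natural killer and some T cells in humans) is the direct neighbour of Adgrg3 on chromosome 8 in the annotation. Its probe sets gave 19.2 and 7.32 for the one, 4.69 and 6.61 for the other, so the neighbours fell on opposite sides of the background. Adgrg5, on the far side of Adgrg1, was not analysed here.

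Of the known or proposed binding partners of adhesion receptors, 4 of 19 measured genes (21.1%) were above background, against 40.4% of all genes. Cd55, whose product binds CD97, had 1016 on replicate 1 and 1236 on replicate 2, and all 3 of its probe sets passed. Prnp, whose prion protein is a ligand of the Adgrg6 product, had 674 and 613, although Adgrg6 itself was not above background (72.0 and 116). Tgm2, encoding the transglutaminase bound by GPR56, had 304 and 258, and Itgb1, an integrin subunit gene, had 227 and 407. The teneurin, FLRT, C1q-like, collagen and laminin genes of the list (Tenm, Flrt, C1ql, Col3a1, Lama2), Itga5, Thy1 and Cd55b were not above background on both arrays.

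Among the proton-sensing receptors 1 of 3 measured genes (33.3%) was above background, against 40.4% of all genes. Gpr65, also called TDAG8, raises cyclic AMP when the outside is acidic and is found on many leukocytes. It had signals of 2300 on replicate 1 and 1425 on replicate 2 (10.82 ± 0.49, SD, n = 2), both far above background. Gpr4, a proton sensor of endothelium, was above background on replicate 2 only, with 68.3 and 194. On the deposited scaling it was at least 1.80-fold higher there, and other scalings were not examined. Gpr132, a related receptor of lymphocytes and macrophages, was above background on neither array, with 83.9 and 102 on its brighter probe set.

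Of the receptors for fatty acids, oxysterols and related lipids, 2 of 7 measured genes (28.6%) were above background, against 40.4% of all genes. Gpr84, a receptor for medium-chain fatty acids on myeloid cells, had 393 on replicate 1 and 662 on replicate 2 (8.99 ± 0.53, SD, n = 2). Gpr18, a receptor of lymphoid and myeloid cells whose ligand is debated, lay close above background with 127 and 165 (7.18 ± 0.27, SD, n = 2). Its neighbour on chromosome 14, Gpr183 or EBI2, guides immune cells along oxysterol gradients and was above background on replicate 1 only, with 133 and 52.7. The other Gpr183 probe set had 3.62 and 4.14. Gpr35, a receptor proposed to sense tryptophan metabolites, had nearly equal signals of 114 and 117, and passed on replicate 1 only, the array with the lower background. Gpr34 and Gpr174, which respond to lysophosphatidylserine, and Gpr31b were not above background on either array, and their signals ran to at most 31.9 on replicate 1 and 50.2 on replicate 2.

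Of 4 enzymes that shape the oxysterol gradient of EBI2, 1 (25%) was above background, against 40.4% of all genes. It was Hsd3b7, which breaks the ligand down, with 191 on replicate 1 and 235 on replicate 2. Ch25h, the cholesterol hydroxylase of ligand synthesis, had 63.9 and 92.5. Cyp7b1, the next enzyme, had 2.71 and 20.5, and Cyp27a1 had 13.97 and 10.9.

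Among lipid and metabolite receptors with names other than Gpr, 7 of 26 measured genes (26.9%) were above background, against 40.4% of all genes. S1pr4, a sphingosine 1-phosphate receptor of blood cells, had 2302 on replicate 1 and 2411 on replicate 2. Hcar2, the receptor of niacin and butyrate, had 994 and 532, while Ffar2, the short-chain fatty acid receptor of neutrophils, had 590 and 1161. The adenine nucleotide receptor genes P2ry13 (1105 and 546) and P2ry12 (365 and 174) were just over 2-fold higher on replicate 1. Their log2 differences were 1.02 and 1.07, and 2.00% of all genes above background passed 2-fold in that direction. Their differences were not examined under other scalings. Lpar6 (454 and 405) and S1pr2 (220 and 185) were also above background.

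Of the genes for organelle membrane proteins, 6 of 10 (60%) were above background, against 40.4% of all genes. Without the _x_at and _s_at probe sets, which can bind several transcripts, the count was 4 of 9 (44.4%), against 38.9% of all genes. Gpr107 and Gpr108 encode related proteins of the Golgi. Gpr107 had 571 on replicate 1 and 765 on replicate 2 (9.37 ± 0.30, SD, n = 2), and Gpr108 had 524 and 673 (9.21 ± 0.25, SD, n = 2). Gpr137 and Gpr137b encode membrane proteins of the lysosome. Gpr137 had 309 and 287 (8.22 ± 0.076, SD, n = 2), and Gpr180 had 185 and 169 (7.47 ± 0.095, SD, n = 2).

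Gpr137b had 1153 on replicate 1 and 750 on replicate 2 (9.86 ± 0.44, SD, n = 2), and the probe set assigned to its pseudogene Gpr137b-ps had 2780 and 1446 (10.97 ± 0.67, SD, n = 2). The passing probe sets of both carry an _x_at or _s_at suffix. These 2 genes cannot be told apart here. Without such probe sets Gpr137b was not above background, and Gpr137b-ps had no probe set of its own left. The organelle protein genes below background on both arrays were Gpr137c, Gpr143 (of melanosomes), Gpr155 and Gpr89 (a Golgi anion channel), with at most 60.9 on replicate 1 and 72.4 on replicate 2.

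The group of remaining orphans holds every Gpr gene not placed in another group, so not all its members are orphans. Of this group 2 of 26 measured genes (7.69%) were above background, and of the other leukocyte receptors 1 of 5 (20%). The share of all genes was 40.4%. Gpr160, an orphan with a single probe set, had 357 on replicate 1 and 719 on replicate 2 (8.99 ± 0.71, SD, n = 2). Gpr146, known from liver cholesterol metabolism, had 614 and 356 (8.87 ± 0.56, SD, n = 2). Gpr45, an orphan of the brain, lay close above background with 142 and 185 (7.34 ± 0.27, SD, n = 2), and its other probe set had 78.7 and 6.98.

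Several other Gpr genes passed on 1 array. Gpr27, of the SREB family of brain orphans, had 60.6 on replicate 1 and 346 on replicate 2, at least 3.21-fold higher on replicate 2. Gpr162 had 30.5 and 195, at least 1.81-fold higher there. The bounds of Gpr27 and Gpr162 hold for the deposited scaling and were not examined under other scalings. Scaling to the hybridisation controls shifts replicate 2 by -0.73 on the log2 scale, which would make both bounds smaller. Gpr39, a zinc-sensing receptor, had 92.2 and 143, and Gpr26 had 68.5 and 134. On replicate 1 only, Gpr19 passed with 127 against 87.0 on replicate 2, and Gpr182, an endothelial receptor that takes up chemokines, with 110 against 73.0. With the exception of Gpr27, these genes lay within 2-fold of the background of the array on which they passed. The other probe sets of Gpr26 (62.0 and 36.9) and Gpr19 (31.7 and 62.8) passed on neither array.

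No other Gpr gene passed on either array. These included the leukocyte receptors Gpr15, Gpr25, Gpr33 and Gpr171 (at most 55.7 on replicate 1 and 92.1 on replicate 2), of which Gpr15 and Gpr171 are known from T cells. The receptors that signal to Gs without ligand, Gpr3, Gpr6 and Gpr12, had at most 23.0 and 20.5. The SREB genes Gpr85 and Gpr173, the cilium receptor Gpr161 and the class C orphans Gpr158 and Gpr179 were also at background. The last 20 were Gpr1, Gpr17, Gpr20, Gpr22, Gpr37, Gpr37l1, Gpr50, Gpr61, Gpr62, Gpr63, Gpr75, Gpr83, Gpr101, Gpr135, Gpr149, Gpr151, Gpr152, Gpr153, Gpr165 and Gpr176, with at most 87.1 on replicate 1 and 107 on replicate 2.

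**Figure D2:**
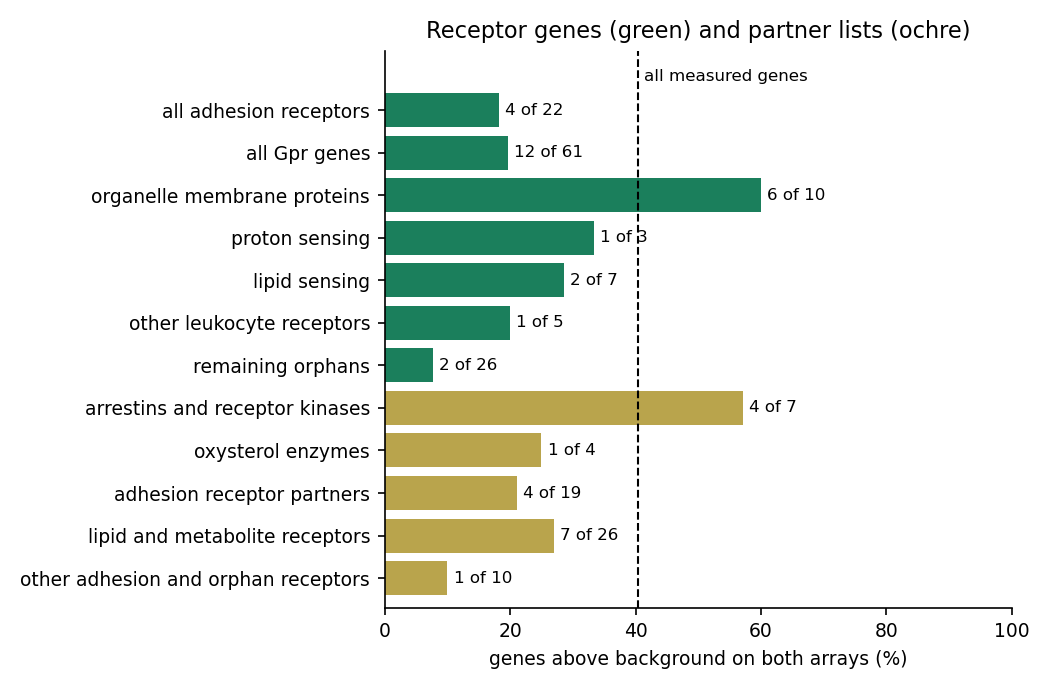
Share of measured genes above background on both arrays, as bars from 0, for groups of the receptor genes (green) and lists of partner genes and related receptors (ochre), with the counts at the bar ends. The dashed line is the share of all measured genes (40.4%). The organelle proteins (6 of 10, but 4 of 9 without _x_at and _s_at probe sets) and the arrestins and receptor kinases (4 of 7) lie to its right.

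The regulators that switch receptors off gave 4 of 7 measured genes above background (57.1%), against 40.4% of all genes. The arrestin gene Arrb2 had 8355 on replicate 1 and 9867 on replicate 2 (13.15 ± 0.17, SD, n = 2), and Arrb1 had 791 and 601. The receptor kinase gene Grk6 had 3334 and 4587 (11.93 ± 0.33, SD, n = 2), and Grk5 had 346 and 192. Grk3 (105 and 203) and Grk4 (116 and 128) each passed on 1 array, and Grk1, a kinase of the retina, had 8.84 and 2.59. Of the adhesion and orphan receptors with other names (Celsr, Gprc5 and Lgr genes), 1 of 10 was above background, the adhesion receptor gene Celsr3 with 399 and 217. Over these lists together 17 of 66 measured genes (25.8%) were above background, against 40.4% of all genes.

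Different probe sets of a receptor gene did not always give the same call. Of the 16 genes above background, 5 had several probe sets, and in each of the 5 at least 1 probe set did not pass. Gpr107 passed on 4 of 5 probe sets, whose signals spanned 141 to 571 (replicate 1) and 178 to 765 (replicate 2), and the other probe set had 88.4 and 22.2. Gpr146 passed on 3 of 4 and Gpr137b on 2 of 4. Adgrl4 and Gpr45 passed on 1 of 2, and both lay close to background on the probe set that passed. Each of the other 11 genes had a single probe set, so their calls have no second reading on the array.

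**Figure D3:**
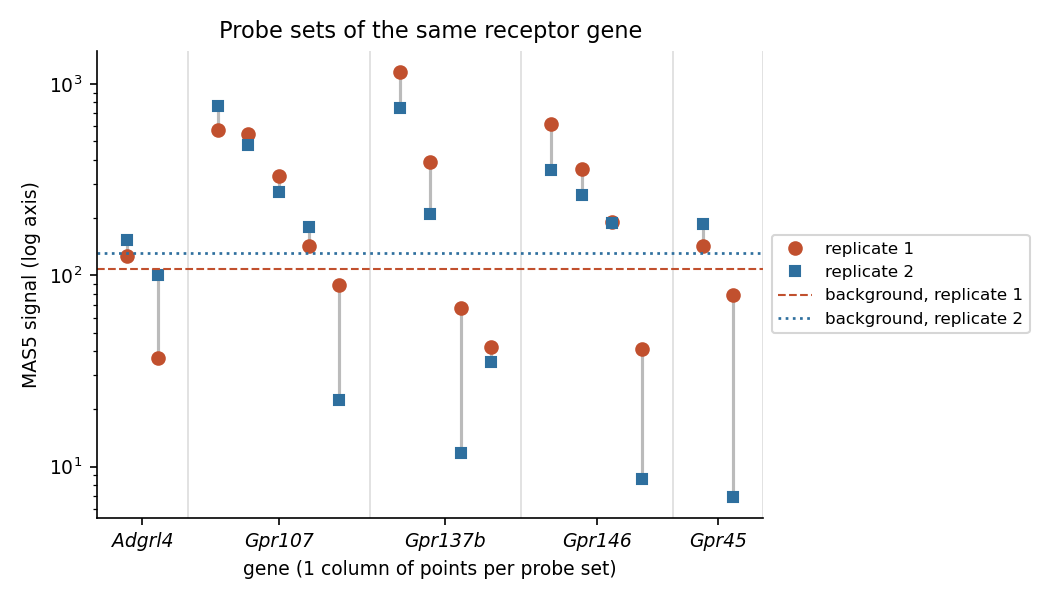
MAS5 signal on a log axis of every probe set of the 5 genes above background that have several, with replicate 1 as circles and replicate 2 as squares, and the background of each array as horizontal lines. Each of the 5 genes has at least 1 probe set with a point below both lines.

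Between the arrays, Adgre1 and Gpr160 differed over 2-fold among the 16 genes above background. The difference is the log2 signal of replicate 1 minus replicate 2. Over the 16 genes its median was 0.0080 and its SD 0.68, with 8 genes higher on replicate 1 and 8 on replicate 2. Over all 7354 genes above background the median was -0.072 and the SD 0.51. A difference over 2-fold was found in 2 of 16 genes (12.5%), against 404 of 7354 (5.49%). Adgre1 was 2.89-fold higher on replicate 1, where 2.00% of all genes passed 2-fold, and Gpr160 was 2.01-fold higher on replicate 2, where 3.49% did. Gpr160 was below 2-fold with median scaling (-0.88), quantile normalization (-0.99), hybridisation scaling (-0.28) or 32 added to the signal (-0.95), while Adgre1 stayed over 2-fold under each. With 1 array per experiment these differences have no replicate check.

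**Figure D4:**
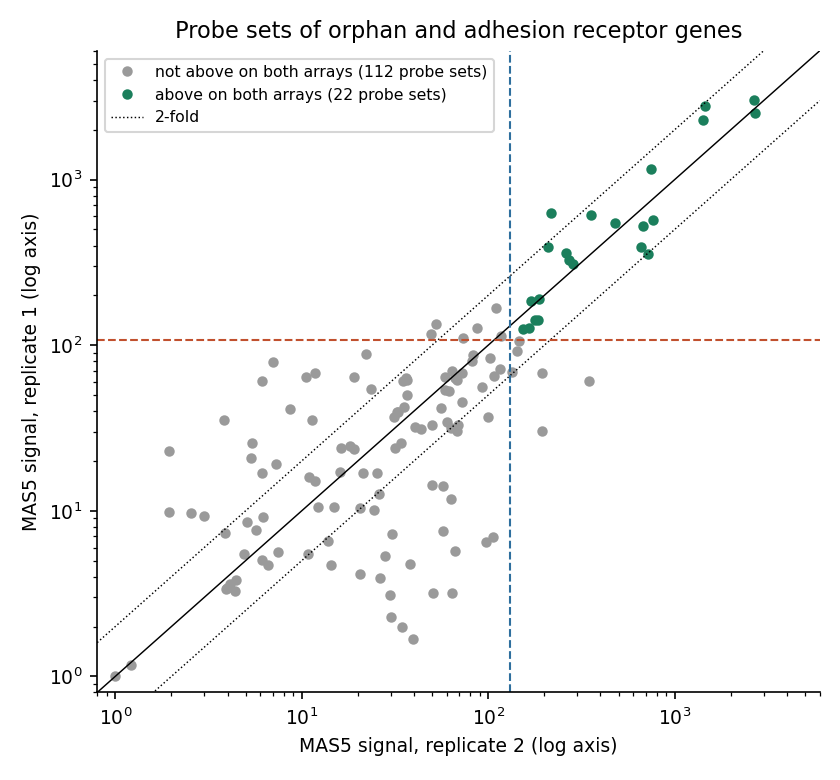
MAS5 signal of the 134 probe sets of the receptor genes, replicate 2 on the horizontal and replicate 1 on the vertical log axis, with signals under 1 drawn at 1. Dashed lines mark the background of each array, the solid line equal signals and dotted lines a 2-fold difference. Of the 22 probe sets above background on both arrays, those of Adgre1 and Gpr160 lie outside the 2-fold lines, and the 112 others scatter widely.

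Below 2-fold, the genes higher on replicate 1 were Gpr137b-ps (difference 0.94), Gpr146 (0.79), Gpr65 (0.69), Gpr137b (0.62), Adgre5 (0.18), Gpr180 (0.13) and Gpr137 (0.11). Those higher on replicate 2 were Gpr84 (-0.75), Gpr107 (-0.42), Gpr18 (-0.38), Gpr45 (-0.37), Gpr108 (-0.36), Adgrl4 (-0.28) and Adgrg3 (-0.092). After scaling to the hybridisation controls, all of these except Gpr84 were higher on replicate 1, at 0.30 for Gpr107, 0.35 for Gpr18, 0.35 for Gpr45, 0.37 for Gpr108, 0.45 for Adgrl4 and 0.64 for Adgrg3, with the median of all genes at 0.66. As the mean of all probe sets Gpr107 (0.34) and Gpr45 (1.56) were higher on replicate 1, and with median scaling Adgrg3 (0.037) was. The genes Gpr137, Gpr137b and Gpr137b-ps were higher on replicate 1 under these settings too.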

How the data were processed

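Total RNA of the sorted cells, 200 ng per sample, was labelled and hybridised to 1 array per sample, per the labels' protocols. The deposited values are linear signal intensities of 45101 probe sets, and MAS5 is the tool that the submitters' processing notes name, with no version or settings. No detection calls were used. GEO's platform annotation gave 1 gene to 34958 probe sets, several to 932 and none to 9211. All 83 receptor symbols matched the NCBI mouse gene table (GRCm38.p6).

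With Python 3.11.15, numpy 2.4.6 and pandas 2.3.3, each gene was given its brightest probe set by mean signal over both arrays, and log2 was taken of the signal floored at 1. A gene not above background on 1 array has only a bound there, the lowest passing signal or its own if higher. The "at least" folds use that bound and the deposited scaling only. Receptor genes above background on 1 or both arrays and partner genes above background on both are named with their signals. The others are named by group. The calling steps were run on simulated data built from the signals of these same arrays, so that run cannot check the calls of real genes. Members and lists were chosen with earlier results of these data known. The alternatives were other background percentiles or genes, other scalings, 32 added to the signal, no filter, other uses of the probe sets, and each array alone.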

Additional observations from a re-analysis of the deposited data

Results flagged for a closer look

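Signals outside the genes read on their own probe sets were found on 3 of 4 probe sets assigned jointly to Gpr137b and its pseudogene Gpr137b-ps, all 3 above background on both arrays. Their signals were 4047 on replicate 1 and 2358 on replicate 2, 1212 and 612, and 998 and 620. The fourth was above background on replicate 1 only. The probe set shared by Gpr146 and another gene was not above background, with 12.04 and 16.8. These probe sets entered no count.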

How the results depend on the processing

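The count of receptor genes above background, 16 of 83, stayed within 1.5 times under every alternative run and its share stayed below that of all genes. It was 12 at the 99th percentile and 12 with genes of other organs as background, both without Adgrl4, Gpr18, Gpr180 and Gpr45. It was 19 at the 90th percentile and 16 when at least 50% of a gene's probe sets had to pass. Without _x_at and _s_at probe sets it was 14 of the 81 genes still measured. That setting lost the call of Gpr137b and left Gpr137b-ps unmeasured. Each array alone gave 22, which hold the 16 genes by definition, since a gene called on both arrays passes on each. The partner lists gave 14 to 24 genes under other percentiles, 16 without _x_at and _s_at probe sets, and 22 to 25 on single arrays, against 17. The 2 genes over 2-fold became 1 with quantile normalization, where 5.18% of all genes passed 2-fold, and 1 with 32 added to the signal (3.98% of all genes). They became 4 with the mean of all probe sets (8.93% of all genes) and 5 with scaling to 18 hybridisation control probe sets (22.2%). With no filter on background the count was 29 of 83, against 27.9% of all genes. Adgre1 was among the receptor genes over 2-fold under each setting. Gpr160 was not among them after median scaling, quantile normalization, hybridisation scaling or 32 added. The median difference of the 16 genes was 0.74 with hybridisation scaling, where that of all genes was 0.66, and -0.36 over 83 genes with no filter. Median scaling moved the split of all genes over 2-fold to 238 higher on replicate 1 and 166 on replicate 2, from 147 and 257, and hybridisation scaling to 1598 and 33. Of 111 differences of the 16 genes under these settings, 9 changed sign, neither Adgre1 nor Gpr160 among them. These were Adgrg3, Adgrl4, Gpr18, Gpr45, Gpr107 and Gpr108 with hybridisation scaling, Adgrg3 with median scaling (0.037), and Gpr107 and Gpr45 with the mean of all probe sets, where Gpr45 went past 2-fold the other way (1.56). The cause was not tested. Differences cannot be had from a single array. No paired analysis was possible because the study has 1 group. Signal near background limits the calls of Adgrl4, Gpr18, Gpr45 and Gpr180.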
